A study of Homo sapiens with 12 samples.

Results

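The Hippo pathway was followed here through 10 genes: the transcriptional co-activator YAP1, its DNA-binding partner TEAD1, the YAP targets CYR61, CTGF, ANKRD1, AXL and NT5E, the targets and inhibitors AMOTL2 and LATS2, and the LATS regulator AJUBA. They were the lines of the count table whose symbol equals one of these names, 10 of 58735 lines, and all 10 were among the 16946 genes tested. RNA sequencing of poly(A) RNA covered 2 human lines of oral squamous cell carcinoma in 4 groups of 3 libraries each: SCC-15 shTTK, SCC-15 shControl, CAL-27 shTTK and CAL-27 shControl. TTK, also named MPS1, is a mitotic checkpoint kinase, and its genotype label in the shTTK cells is knockdown. The labels call the shControl cells wild type, which the series design text does too, and list every library as untreated and in batch 1, so whether the controls held a control hairpin is not settled by them. Neither the hairpin sequence nor the number of knockdown clones is given in the sources used here. Nothing says that the numbered replicates were separate cultures, so p-values rest on a spread between these libraries only, which may be technical. For each gene, that spread was estimated in part from all tested genes together.

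In the Hippo pathway, the kinases LATS1 and LATS2 phosphorylate YAP and its paralog TAZ and hold them in the cytoplasm. Unphosphorylated YAP enters the nucleus and binds TEAD proteins, which recognise a short DNA element and raise transcription of genes for growth, adhesion and matrix signalling. Some of the targets, among them LATS2 and AMOTL2, feed back on YAP. In squamous epithelia YAP is known for its part in basal cell growth, and its regulation acts mostly on the protein, which RNA counts do not show.

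Promoter sequences from RefSeq (build GRCh38.p14) were found for 8 of the 10 genes, in 11 windows of 250 bases before an annotated start. They were searched on both strands for GGAATG, the core of the TEAD element. Of the 11 windows, 6 held it, each from a different gene, and it occurred in 11.9% of all 35116 RefSeq windows of that length. CTGF held it 3 times, where 0.0826% of all windows held 3 or more, and ANKRD1 held it 2 times, where 0.94% held 2 or more. The windows with 1 match belonged to YAP1, AXL, AMOTL2 and AJUBA, while those of NT5E and LATS2 had 0. AXL, AMOTL2 and AJUBA each also had a window before a start farther upstream, and those windows had 0 matches too. With the 50 bases after the start included, LATS2 had 1 match too, and 4928 of the 35116 windows then held the motif. TGANTCA, a loose form of the AP-1 element, which often lies near TEAD sites, was in 1 of the 11 windows, against 6.57% of all windows. That window was of ANKRD1, and its match reads TGATTCA, where the usual AP-1 element has C or G in the middle. Several windows overlapped exons of their own gene in the GENCODE 29 annotation. The overlap was largest in NT5E and the matching AJUBA window (250 bases each), ANKRD1 (189) and the matching AMOTL2 window (147). A match describes letters and is no evidence of binding. Shown are CTGF, with the most matches, AXL, a gene that fell by more than 2-fold in CAL-27, and YAP1 itself. Capitals mark GGAATG or its reverse complement CATTCC, and each sequence is read 5′ to 3′ on the strand of its gene.
CTGF (chr6:131951373-131951622, minus strand): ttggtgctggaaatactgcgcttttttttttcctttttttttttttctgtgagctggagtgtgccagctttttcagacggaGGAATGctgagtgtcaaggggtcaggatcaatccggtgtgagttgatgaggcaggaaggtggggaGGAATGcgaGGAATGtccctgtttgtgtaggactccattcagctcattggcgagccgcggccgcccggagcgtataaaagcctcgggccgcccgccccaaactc
AXL (chr19:41226505-41226754, plus strand, before a start inside the gene): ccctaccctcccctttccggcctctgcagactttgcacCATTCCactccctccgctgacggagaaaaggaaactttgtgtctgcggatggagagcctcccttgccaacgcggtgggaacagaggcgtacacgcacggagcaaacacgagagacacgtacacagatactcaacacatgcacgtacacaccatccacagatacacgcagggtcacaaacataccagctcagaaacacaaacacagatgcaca
YAP1 (chr11:102110197-102110446, plus strand): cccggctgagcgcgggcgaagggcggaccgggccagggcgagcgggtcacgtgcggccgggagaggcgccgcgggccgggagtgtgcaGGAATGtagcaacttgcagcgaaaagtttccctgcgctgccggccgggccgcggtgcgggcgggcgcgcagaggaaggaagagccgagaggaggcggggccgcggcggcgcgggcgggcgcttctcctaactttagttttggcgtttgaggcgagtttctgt
In CTGF the matches began 169, 104 and 95 bases before the start, in AXL 212 bases and in YAP1 162 bases before it.

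Levels are CPM, that is counts brought to a common library size with TMM scaling factors, and library totals were 16176655 to 18484112 counts. TTK measured 26.9, 29.2 and 34.3 CPM in SCC-15 shTTK libraries, against 67.5, 69.4 and 72.9 CPM in SCC-15 controls. In CAL-27 it measured 35.6, 32.5 and 33.5 CPM in shTTK, against 46.4, 48.4 and 53.4 CPM in control libraries. TTK was thus lower in each shTTK library than in each control of its line, with a log2 fold change of -1.21 ± 0.065 (SE) in SCC-15 (edgeR adjusted p = 1.92e-25) and of -0.54 ± 0.066 in CAL-27 (edgeR adjusted p = 4.04e-10). In SCC-15, the libraries numbered 1 differed most from their group by a chi-square of counts over genes (5.62 and 5.96 per gene for the control library, against 1.98 between the other controls), so SCC-15 values are also given without both of them. Mitochondrial transcripts took 2.47% ± 0.196 of the counts in SCC-15 shTTK, 3.27% ± 0.513 in SCC-15 shControl, 4.57% ± 0.105 in CAL-27 shTTK and 4.29% ± 0.0414 in CAL-27 shControl libraries (SD, n = 3 each). All 10 squamous epithelial markers were tested, and their summed level was 8751 to 8812 CPM in SCC-15 shTTK, 8994 to 9374 in SCC-15 shControl, 5679 to 5786 in CAL-27 shTTK and 3843 to 3930 in CAL-27 shControl libraries. Single squamous markers differed in direction: in SCC-15, 5 were called higher, among them CDH1 (0.75) and DSP (0.19), and the 4 markers KRT5 (-0.27), KRT14 (-1.05), KRT6A (-0.11) and TP63 (-0.18) lower, on the log2 scale. In CAL-27, 7 were called higher, with KRT5 at 1.12, KRT14 at 4.40, KRT6A at 2.33 and TP63 at 1.099, and EPCAM (-0.28) and CDH1 (-0.11) lower. Fibroblasts also express CYR61, CTGF, AXL and NT5E. The 8 fibroblast markers summed to 20.6 to 22.7 CPM in SCC-15 shTTK, 21.2 to 23.0 in SCC-15 shControl, 41.5 to 42.3 in CAL-27 shTTK and 32.0 to 37.7 in CAL-27 shControl libraries, and most of this was COL1A1. COL1A2 averaged 2.55 CPM in CAL-27 shTTK and 3.15 CPM in CAL-27 shControl libraries, and PDGFRB 4.26 and 5.18 CPM. Neither was called in CAL-27 (log2 fold changes -0.30 for COL1A2 and -0.28 for PDGFRB), while COL1A1 was called higher (0.36). LUM was called higher there too (2.01), at 0.484 CPM in shTTK and 0.111 CPM in control libraries. The marker DCN was at 0 in all CAL-27 libraries and averaged 0.057 CPM in both SCC-15 groups. The 5 leukocyte markers summed to 0.279 to 0.758, 0.457 to 0.469, 10.96 to 14.03 and 8.24 to 11.8 CPM in the same order of groups, nearly all of it CD14 in CAL-27, with PTPRC at 0 there. The 4 endothelial markers summed to 1.52 to 2.25, 1.47 to 1.95, 72.4 to 74.3 and 102 to 110 CPM in that order. Nearly all of this in CAL-27 was CDH5, while KDR was at 0 in the 12 libraries. The 8 proliferation markers summed to 2309 to 2345, 2214 to 2256, 1892 to 1943 and 2009 to 2042 CPM in that order.

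YAP1 fell in both lines, and TEAD1 rose in SCC-15. YAP1 (chromosome 11, 102110461 to 102233423, plus strand, GRCh38) measured 148, 158 and 155 CPM in SCC-15 shTTK libraries 1 to 3, against 196, 188 and 185 CPM in SCC-15 controls. Its CAL-27 levels were 178, 180 and 180 CPM in shTTK, against 200, 191 and 198 CPM in control libraries. Each knockdown library lay under each control of its line. The log2 fold change was -0.31 ± 0.036 (SE) in SCC-15, which is 80.9% of the control level (edgeR adjusted p = 6.10e-11), and -0.13 ± 0.035 in CAL-27, which is 91.5% (edgeR adjusted p = 3.32e-03). The CAL-27 call was lost without shTTK library 1 (-0.10, edgeR adjusted p = 0.0531). The interaction, which is the log2 change in SCC-15 less that in CAL-27, was -0.18 ± 0.050 (edgeR adjusted p = 4.96e-03), and without the SCC-15 libraries numbered 1 it was -0.12 (edgeR adjusted p = 0.0893), while the SCC-15 change was then -0.25 (edgeR adjusted p = 8.58e-07). An antisense gene that shares 9.97% of the YAP1 exon bases had 0 counts in all groups.

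TEAD1 (chromosome 11, 12674591 to 12944483, plus strand) measured 131, 146 and 146 CPM in SCC-15 shTTK libraries, against 122, 125 and 129 CPM in SCC-15 controls. These groups did not overlap, and shTTK library 1 lay nearest to the controls. The log2 fold change was 0.17 ± 0.039 (edgeR adjusted p = 3.56e-04), and 0.20 without the libraries numbered 1 (edgeR adjusted p = 1.63e-04). In CAL-27, TEAD1 averaged 147 ± 2.34 CPM in shTTK and 153 ± 0.821 CPM in control libraries (SD, n = 3 each). The CAL-27 groups did not overlap either, but the log2 fold change of -0.056 ± 0.039 was not called (edgeR adjusted p = 0.316). The interaction was 0.23 ± 0.055 (edgeR adjusted p = 8.64e-04).

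**Figure D1:**
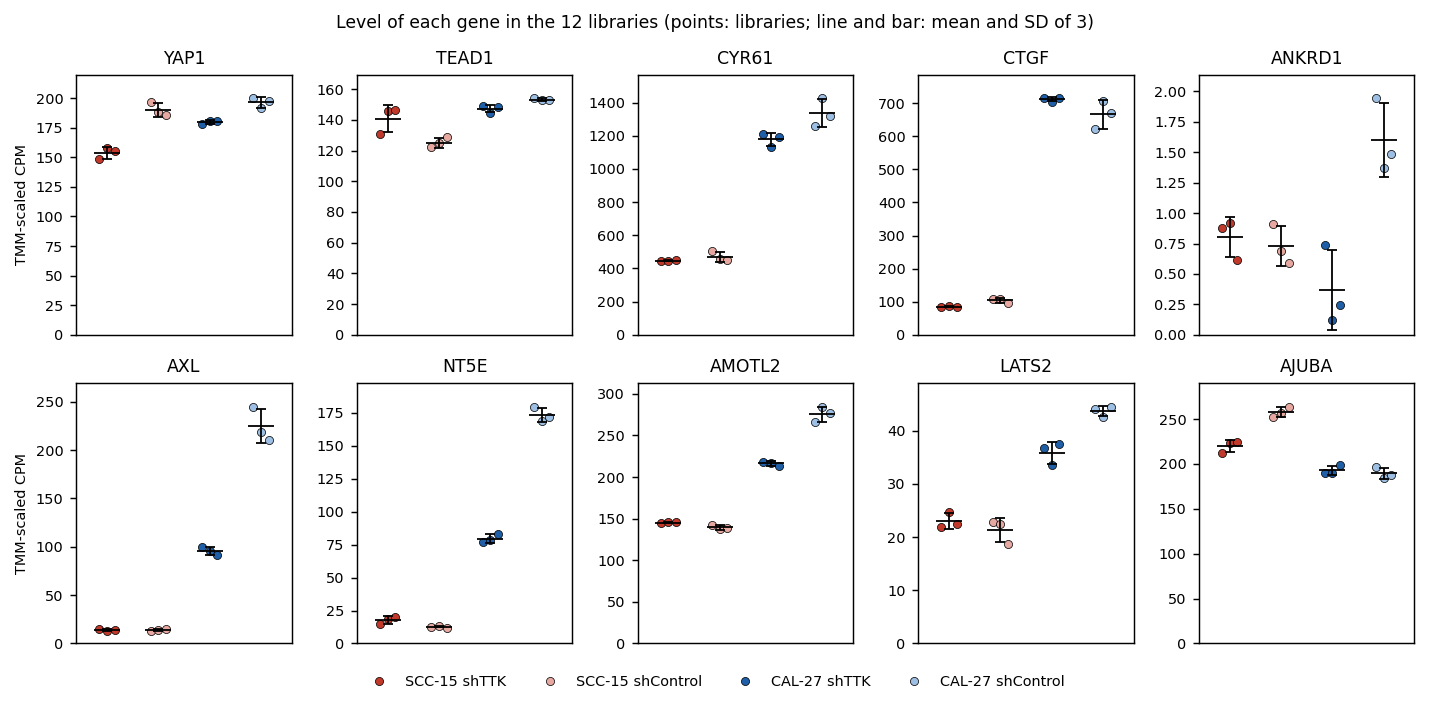
TMM-scaled CPM of the 10 genes, on axes that start at 0. Points are libraries 1 to 3 of each group from left to right, and the line and bar give the mean and SD. AXL and NT5E in CAL-27 shTTK libraries lie between 91.9 and 99.8 CPM and between 76.85 and 83.1 CPM, under all CAL-27 controls, while the SCC-15 libraries lie at 20.3 CPM or less in both genes.

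The secreted matricellular proteins CYR61 and CTGF, also named CCN1 and CCN2, are the targets most often used as readouts of YAP, and CYR61 fell in CAL-27 while CTGF fell in SCC-15. CYR61 (chromosome 1, 85580761 to 85583962, plus strand) measured 446, 443 and 452 CPM in SCC-15 shTTK libraries, against 503, 455 and 453 CPM in SCC-15 controls. In CAL-27 it measured 1210, 1134 and 1192 CPM in shTTK, against 1260, 1426 and 1321 CPM in control libraries. Neither pair of groups overlapped, and SCC-15 control libraries 2 and 3 lay just above the highest knockdown library. CYR61 fell in CAL-27, with a log2 fold change of -0.18 ± 0.042 or 88.3% of the control level (edgeR adjusted p = 2.55e-03), and the value was -0.11 without control library 2, the highest (edgeR adjusted p = 0.0116). In SCC-15 it was -0.073 ± 0.043 (edgeR adjusted p = 0.243), and -0.018 without the libraries numbered 1. The interaction of 0.11 ± 0.060 was not called (edgeR adjusted p = 0.226), but it was called at 0.17 without the SCC-15 libraries numbered 1 (edgeR adjusted p = 0.0235), at 0.16 without SCC-15 control library 1 alone (edgeR adjusted p = 0.0102) and at 0.15 without CAL-27 control library 1 (edgeR adjusted p = 0.0207).

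CTGF (chromosome 6, 131948176 to 131951373, minus strand), the gene with the most TEAD motif matches above, measured 84.4, 85.9 and 84.8 CPM in SCC-15 shTTK libraries, against 109, 108 and 95.6 CPM in SCC-15 controls. Its CAL-27 levels were 715, 704 and 715 CPM in shTTK, against 622, 708 and 669 CPM in control libraries. The SCC-15 groups did not overlap, while in CAL-27 control library 2 lay within the knockdown range. CTGF fell in SCC-15 by 0.30 ± 0.046 on the log2 scale, to 81.5% of the control level (edgeR adjusted p = 4.19e-06), and by 0.25 without the libraries numbered 1 (edgeR adjusted p = 4.45e-03). In CAL-27 the log2 fold change was 0.094 ± 0.037 (edgeR adjusted p = 0.0604), and this side of the threshold was not stable: it was called higher in CAL-27 fitted alone (0.11, edgeR adjusted p = 6.01e-03), with other count filters, and without CAL-27 control library 2, SCC-15 shTTK library 2, or SCC-15 control library 2 or 3. Without CAL-27 control library 1 the value was 0.041 (edgeR adjusted p = 0.474), and without control library 2 it was 0.16 (edgeR adjusted p = 5.31e-04). The interaction was -0.39 ± 0.059 (edgeR adjusted p = 3.62e-06), and -0.34 without the SCC-15 libraries numbered 1.

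ANKRD1 (chromosome 10, 90912096 to 90921276, minus strand), a nuclear ankyrin repeat protein and a sensitive YAP readout in many cell types, was near the limit of detection. It had 15, 16 and 11 counts in SCC-15 shTTK libraries, against 16, 12 and 10 counts in SCC-15 controls. It had 12, 2 and 4 counts in CAL-27 shTTK libraries, against 34, 25 and 24 counts in CAL-27 controls. The CAL-27 groups did not overlap, and shTTK library 1 held most of the knockdown counts. ANKRD1 fell in CAL-27, with a log2 fold change of -2.11 ± 0.44 (edgeR adjusted p = 8.49e-05), which was -3.08 without shTTK library 1 and -1.69 without shTTK library 2. In SCC-15 the groups overlapped, with a value of 0.13 ± 0.42 (edgeR adjusted p = 0.872). The 95% interval of the SCC-15 value ran from -0.70 to 0.96, a range that holds both a fall and a rise, so these counts settled no direction. The interaction was 2.24 ± 0.62 (edgeR adjusted p = 3.57e-03).

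The surface protein genes AXL and NT5E showed, after ANKRD1, the largest log2 changes of the set, and these were in CAL-27. AXL (chromosome 19, 41219203 to 41261766, plus strand), a receptor tyrosine kinase for GAS6, measured 14.75, 13.1 and 13.6 CPM in SCC-15 shTTK libraries, against 13.4, 14.3 and 15.3 CPM in SCC-15 controls. In CAL-27 it measured 99.8, 95.5 and 91.9 CPM in shTTK, against 245, 219 and 211 CPM in control libraries. The SCC-15 groups overlapped, and in CAL-27 every knockdown library was far below every control. AXL fell in CAL-27 to 42.6% of the control level, a log2 fold change of -1.23 ± 0.045 (edgeR adjusted p = 2.10e-34). In SCC-15 it was -0.051 ± 0.084 (edgeR adjusted p = 0.722), with a 95% interval from -0.22 to 0.11, and it was -0.15 without the libraries numbered 1. The interaction was 1.18 ± 0.096 (edgeR adjusted p = 1.51e-16).

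NT5E (chromosome 6, 85449584 to 85495791, plus strand) encodes CD73, the ectonucleotidase that makes adenosine from AMP, and it changed in opposite directions in the 2 lines. It measured 14.6, 18.7 and 20.3 CPM in SCC-15 shTTK libraries, against 12.9, 12.97 and 12.1 CPM in SCC-15 controls. Its CAL-27 levels were 76.85, 78.1 and 83.1 CPM in shTTK, against 179, 169 and 172 CPM in control libraries. Neither pair of groups overlapped, and SCC-15 shTTK library 1 lay closest to its controls. NT5E rose in SCC-15 by 0.50 ± 0.086 on the log2 scale, a 1.42-fold level (edgeR adjusted p = 3.28e-06), and by 0.64 without the libraries numbered 1 (edgeR adjusted p = 5.96e-08). It fell in CAL-27 to 45.8% of the control level, a log2 fold change of -1.13 ± 0.050 (edgeR adjusted p = 3.37e-28). The interaction was 1.63 ± 0.099 (edgeR adjusted p = 2.87e-21). Summed squamous and fibroblast markers were higher and summed endothelial markers lower in CAL-27 shTTK than in CAL-27 shControl libraries, as given above, and their part in the changes of AXL and NT5E was not tested. In such bulk RNA, fewer cells that express a gene and less RNA of it per cell cannot be told apart.

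The inhibitors AMOTL2 and LATS2 fell in CAL-27, and AJUBA fell in SCC-15. AMOTL2 (chromosome 3, 134355874 to 134375479, minus strand), an angiomotin that binds YAP at junctions, measured 145, 146 and 145 CPM in SCC-15 shTTK libraries, against 143, 137 and 139 CPM in SCC-15 controls. In CAL-27 it measured 218, 217 and 213 CPM in shTTK, against 266, 284 and 277 CPM in control libraries. Both pairs of groups were apart, by a narrow margin in SCC-15 and a wide one in CAL-27. AMOTL2 fell in CAL-27, with a log2 fold change of -0.35 ± 0.034 or 78.5% of the control level (edgeR adjusted p = 3.24e-14), while the SCC-15 value was 0.059 ± 0.036 (edgeR adjusted p = 0.240), or 0.080 without the libraries numbered 1. LATS2 (chromosome 13, 20973032 to 21061547, minus strand), a kinase that phosphorylates YAP, ranged from 21.8 to 24.7 CPM in SCC-15 shTTK and from 18.8 to 22.8 CPM in SCC-15 control libraries. It ranged from 33.5 to 37.4 CPM in CAL-27 shTTK and from 42.5 to 44.5 CPM in CAL-27 control libraries. LATS2 fell in CAL-27, to 82.1% of the control level (log2 fold change -0.28 ± 0.069, edgeR adjusted p = 7.42e-04), whereas its SCC-15 groups overlapped, with a value of 0.10 ± 0.079 (edgeR adjusted p = 0.360). That SCC-15 value of LATS2 was 0.19 without the libraries numbered 1, 0.058 without shTTK library 2 and 0.025 without control library 3, and it was not called in any of these fits. The other YAP kinase, LATS1, was not called in SCC-15 (-0.075, edgeR adjusted p = 0.327) or in CAL-27 (0.035, edgeR adjusted p = 0.701). The interaction was 0.41 ± 0.049 for AMOTL2 (edgeR adjusted p = 1.94e-10) and 0.39 ± 0.10 for LATS2 (edgeR adjusted p = 2.72e-03).

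AJUBA (chromosome 14, 22971174 to 22982642, minus strand) is a LIM protein that binds LATS kinases and limits their action on YAP, and frequent loss-of-function mutations of it are known in head and neck squamous carcinoma. It ranged from 213 to 224 CPM in SCC-15 shTTK libraries, against 253 to 264 CPM in SCC-15 controls. It ranged from 190 to 199 CPM in CAL-27 shTTK libraries, against 184 to 197 CPM in CAL-27 controls. Only the SCC-15 groups were apart. AJUBA fell in SCC-15 by 0.23 ± 0.034 on the log2 scale, to 85.4% of the control level (edgeR adjusted p = 9.66e-08), and by 0.22 without the libraries numbered 1. In CAL-27 the log2 fold change was 0.025 ± 0.035 (edgeR adjusted p = 0.665), and the interaction was -0.25 ± 0.049 (edgeR adjusted p = 2.77e-05).

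**Figure D2:**
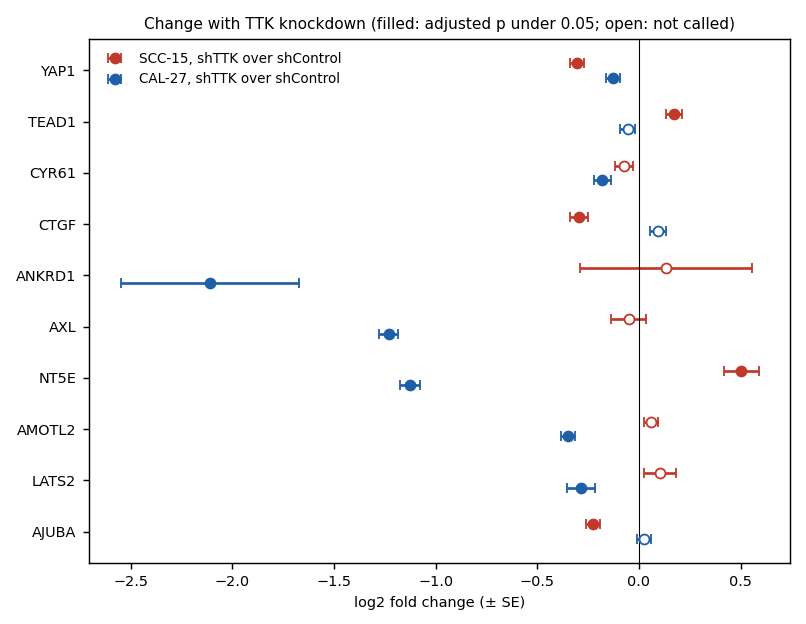
Log2 fold change of shTTK over shControl with its SE for each gene, with SCC-15 above CAL-27 in each row. Filled points have an edgeR adjusted p under 0.05. NT5E stands at 0.50 in SCC-15 and at -1.13 in CAL-27, and YAP1 is the gene that was called lower in both lines.

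In counts, 2 of the 10 genes rose in SCC-15 (TEAD1 and NT5E) and 3 fell (YAP1, CTGF and AJUBA), where 13.4% of all tested genes rose and 14.3% fell (27.7% called). In CAL-27, 0 of the 10 rose and 7 fell, where 11.6% of all tested genes rose and 15.7% fell (27.3% called). The median log2 fold change of the 10 genes was 0.0038 in SCC-15, with 0 over all tested genes, and -0.23 in CAL-27, with -0.010 over all. Groups did not overlap for 3 genes that were higher and 4 that were lower in SCC-15 (19.3% and 19.6% of all tested genes), and for 0 and 8 in CAL-27 (17.1% and 21.3%). The interaction was called above 0 for 6 genes and below 0 for 3, where 13.3% and 12.1% of all tested genes were called, and 25.4% in either direction. Without the SCC-15 libraries numbered 1 these counts were 2 and 3 in SCC-15, 0 and 7 in CAL-27, and 7 and 2 for the interaction. The genes were chosen with earlier results of these data known, so the counts describe the set and are not independent evidence.

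Without the knockdown, most of the 10 genes stood lower in SCC-15. In SCC-15 controls against CAL-27 controls, 8 of the 10 genes were lower and 1, AJUBA, was higher, where 38.2% of all tested genes were lower and 37.8% higher (76% called). The same counts of genes had groups that did not overlap (39.1% and 38.2% of all). AXL was lowest relative to CAL-27, at 6.37% of the CAL-27 control level (log2 fold change -3.97 ± 0.058, edgeR adjusted p = 5.64e-60), followed by NT5E at 7.30% (-3.78 ± 0.065, edgeR adjusted p = 3.02e-52) and CTGF at 15.7% (-2.67 ± 0.042, edgeR adjusted p = 4.63e-34). CYR61 stood at 35.2%, ANKRD1 at 45.9%, LATS2 at 49.0%, AMOTL2 at 50.6% and TEAD1 at 81.7%, with edgeR adjusted p values up to 6.80e-03, that of ANKRD1. YAP1 itself had a log2 fold change of -0.047 ± 0.035 (edgeR adjusted p = 0.225), with overlapping groups, while AJUBA stood at 1.36-fold (0.44 ± 0.034, edgeR adjusted p = 9.81e-20). Squamous, fibroblast and endothelial marker sums also differed between the lines, and their part in this comparison was not tested. It shares its control libraries with both knockdown comparisons and the interaction, and cell line, origin and culture cannot be told apart in it.

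Per length of annotated exon, CYR61 had the highest level of the set in both lines, with 191 ± 11.6 CPM per kb in SCC-15 controls and 544 ± 34.3 in CAL-27 controls (SD, n = 3 each). CTGF came next, with 44.6 ± 3.27 and 285 ± 18.4 CPM per kb in SCC-15 and CAL-27 controls. In SCC-15 controls, CTGF lay within its spread of AJUBA (43.1 ± 0.904 CPM per kb), and YAP1 (30.2 ± 0.904), AMOTL2 (23.3 ± 0.457) and TEAD1 (12.2 ± 0.318) followed. LATS2 was then at 3.83 ± 0.406 and ahead of NT5E (2.79 ± 0.107) and AXL (2.78 ± 0.188), which did not differ beyond their spread. In CAL-27 controls, AMOTL2 (46.1 ± 1.502 CPM per kb) and AXL (43.6 ± 3.42) did not differ beyond their spread, and neither did AJUBA (31.7 ± 1.08) and YAP1 (31.2 ± 0.712), with NT5E (38.2 ± 1.21) between these pairs. TEAD1 (14.9 ± 0.080) and LATS2 (7.83 ± 0.18) followed. ANKRD1 was lowest, with 0.369 ± 0.085 and 0.809 ± 0.15 CPM per kb in SCC-15 and CAL-27 controls.

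**Figure D3:**
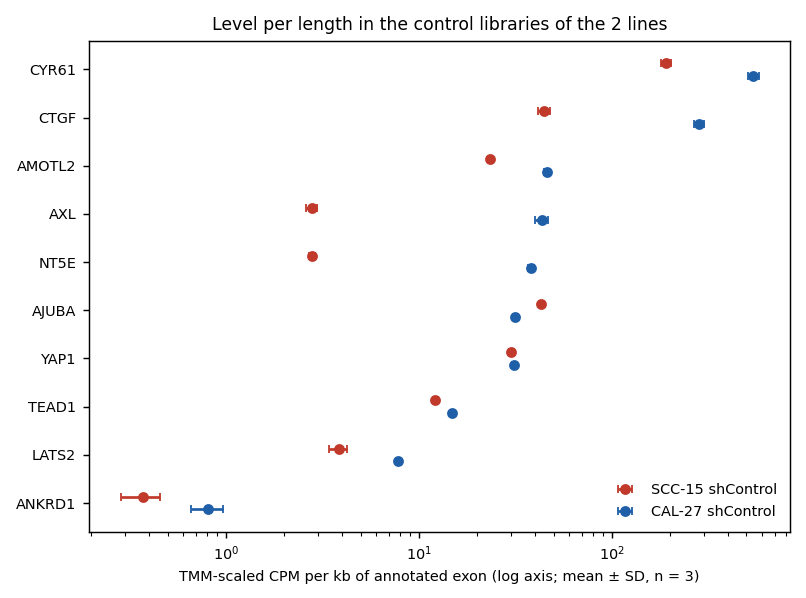
Level of each gene in the control libraries as TMM-scaled CPM per kb of annotated exon on a log axis (mean and SD, n = 3), with SCC-15 above CAL-27 in each row. YAP1 lies at 30.2 and 31.2 in SCC-15 and CAL-27 controls, while AXL lies at 2.78 and 43.6.

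Across the 12 libraries, 6 genes of the set formed 3 pairs in which each was the other's closest member: AXL with NT5E, AMOTL2 with LATS2, and YAP1 with TEAD1. Likeness was the root mean square distance between log2 CPM profiles, each centred on its mean over the 12 libraries. Differences between the lines and changes with knockdown both enter it, and their shares were not computed. Between the control groups, the log2 line difference was -3.97 in AXL, -3.78 in NT5E and -0.047 in YAP1, where it was not called. The distance of AXL and NT5E was 0.32, and of 12043 other genes (mean count 50 or more) 7 were closer to each. That of AMOTL2 and LATS2 was 0.096, with 48 other genes closer to AMOTL2 and 8 closer to LATS2. YAP1 and TEAD1 were 0.18 apart, more than the root mean square spread of either profile about its own mean (0.14 for YAP1 and 0.12 for TEAD1), with 1628 other genes closer to YAP1 and 2155 closer to TEAD1. Among genes outside the set, the profile nearest to AMOTL2 was that of WWC1 (0.039), which encodes KIBRA, an upstream Hippo regulator. The nearest were ITGB8 for LATS2 (0.082), GULP1 for AXL (0.22), DUSP4 for NT5E (0.17), IRF1 for CYR61 (0.063) and ALDH5A1 for CTGF (0.11). They were MAPKAP1 for YAP1 (0.037), TPD52L2 for TEAD1 (0.039), HSF2 for AJUBA (0.041) and KIAA1324 for ANKRD1 (0.53). CYR61 and CTGF, paralogs with a common use as YAP readouts, were not each other's closest member.

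The wider pathway was followed in 3 lists that share genes with the set and with each other. Of 22 other Hippo kinases and regulators, 21 were tested, and 5 rose and 6 fell in SCC-15 while 6 rose and 9 fell in CAL-27, with median log2 fold changes of -0.051 and -0.13. Over all tested genes, 13.4% rose and 14.3% fell in SCC-15 and 11.6% rose and 15.7% fell in CAL-27, with medians of 0 and -0.010. In SCC-15, the kinases STK4, also named MST1 (0.27 ± 0.040, edgeR adjusted p = 4.22e-08), and TAOK2 (0.28 ± 0.044, edgeR adjusted p = 2.65e-07) rose, and the kinase TAOK1 fell (-0.46 ± 0.039, edgeR adjusted p = 1.48e-16). STK4 rose in CAL-27 too (0.24, edgeR adjusted p = 1.53e-06), whereas TAOK2 fell there (-0.13, edgeR adjusted p = 0.0170). TAOK1 was not called in CAL-27 (0.012, edgeR adjusted p = 0.885). In CAL-27, the protocadherin FAT1 rose (0.58 ± 0.032, edgeR adjusted p = 5.24e-26), and MAP4K4, a kinase that activates LATS (-0.60 ± 0.034, edgeR adjusted p = 1.53e-25), and WWC1 (-0.33 ± 0.039, edgeR adjusted p = 8.14e-11) fell. FAT1 fell in SCC-15 (-0.12, edgeR adjusted p = 1.56e-03), whereas WWC1 rose there (0.11, edgeR adjusted p = 0.0431). MAP4K4 was not called in SCC-15 (-0.080, edgeR adjusted p = 0.0814). The phosphatase PTPN14, which binds YAP and is also one of its targets, fell in SCC-15 (-0.48 ± 0.040, edgeR adjusted p = 6.94e-17) and rose in CAL-27 (0.41 ± 0.038, edgeR adjusted p = 9.03e-15).

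Of the 8 other factors, which are the YAP paralog WWTR1 (TAZ), TEAD2 to TEAD4 and VGLL1 to VGLL4, 6 had counts and were tested in SCC-15, and 2 rose and 1 fell. In CAL-27 7 were tested, and 0 rose and 4 fell. These few genes stand beside 13.4% higher and 14.3% lower over all genes in SCC-15, and 11.6% and 15.7% in CAL-27. Median log2 fold changes were -0.11 in SCC-15 and -0.15 in CAL-27. TEAD4, a TEAD family member, rose in SCC-15 (0.25 ± 0.053, edgeR adjusted p = 8.60e-05) and fell in CAL-27 (-0.24 ± 0.064, edgeR adjusted p = 3.02e-03). TEAD3 rose in SCC-15 (0.21 ± 0.075, edgeR adjusted p = 0.0321) and fell in CAL-27 (-0.22, edgeR adjusted p = 4.88e-03). VGLL4, which competes with YAP for TEAD, fell in SCC-15 (-0.39 ± 0.063, edgeR adjusted p = 4.46e-07). It was not called in CAL-27 (-0.0052, edgeR adjusted p = 0.978). WWTR1 fell in CAL-27 (-0.15, edgeR adjusted p = 0.0174) and was not called in SCC-15 (-0.077, edgeR adjusted p = 0.367). VGLL2, a TEAD cofactor, fell in CAL-27 (-0.90 ± 0.12, edgeR adjusted p = 6.84e-09) and had 0 counts in the SCC-15 libraries. Per length, TEAD4 stood at 29.1 ± 1.02 CPM per kb in SCC-15 controls, above TEAD1 at 12.2 ± 0.318, whereas in CAL-27 controls TEAD4 (14.9 ± 0.605) and TEAD1 (14.9 ± 0.080) differed by less than their spread.

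Of 15 other genes of a conserved YAP/TAZ target signature, 14 were tested, and 5 rose and 3 fell in SCC-15 while 4 rose and 6 fell in CAL-27, with median log2 fold changes of 0.11 and -0.11. In SCC-15, CRIM1 (0.37 ± 0.044, edgeR adjusted p = 1.78e-10) and MYOF, the membrane repair protein myoferlin (0.23 ± 0.029, edgeR adjusted p = 3.37e-10), rose, and the secreted protein CCDC80 fell (-0.88 ± 0.098, edgeR adjusted p = 1.43e-11). All of these were called the other way in CAL-27. CRIM1 (-0.27, edgeR adjusted p = 1.18e-08) and MYOF (-0.099, edgeR adjusted p = 6.06e-03) fell there. CCDC80 rose there (0.46, edgeR adjusted p = 1.49e-04). In CAL-27, IGFBP3, a binding protein of insulin-like growth factors, rose (0.87 ± 0.035, edgeR adjusted p = 5.28e-22), while the growth factor gene TGFB2 (-1.62 ± 0.17, edgeR adjusted p = 1.97e-12) and the kinase gene NUAK2 (-0.58 ± 0.064, edgeR adjusted p = 3.01e-11) fell. IGFBP3 (0.35, edgeR adjusted p = 7.74e-06) and NUAK2 (0.24, edgeR adjusted p = 5.29e-03) both rose in SCC-15. TGFB2 was not called in SCC-15 (0.38, edgeR adjusted p = 0.772), where it averaged 0.153 CPM in shTTK and 0.115 CPM in control libraries. With the 7 genes of the set that belong to it included, 6 of 21 tested signature genes rose and 4 fell in SCC-15, and 4 rose and 12 fell in CAL-27. The shares over all tested genes were 13.4% higher and 14.3% lower in SCC-15, and 11.6% higher and 15.7% lower in CAL-27.

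**Figure D4:**
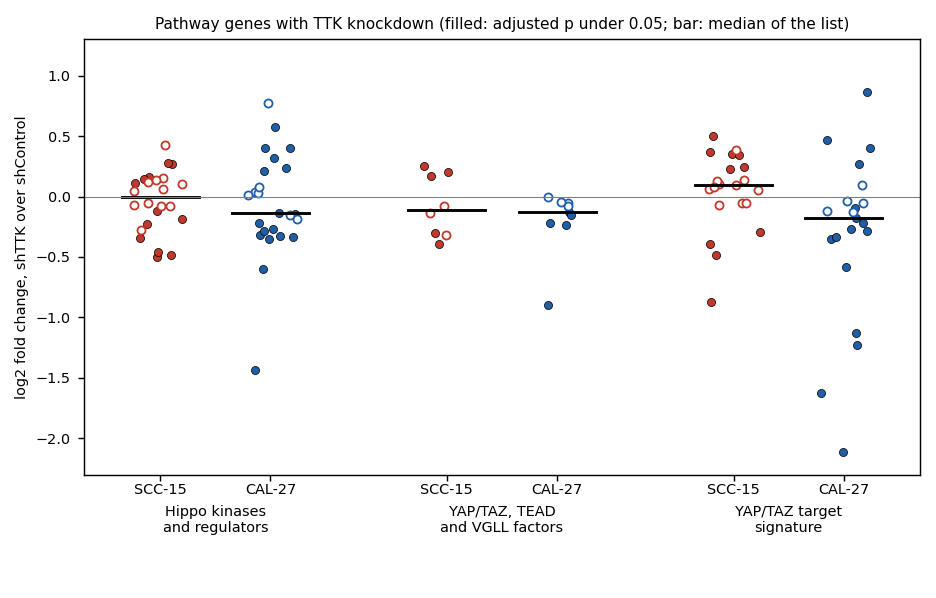
Log2 fold change of shTTK over shControl for the genes of the 3 pathway lists, members of the set included, with SCC-15 left of CAL-27. Filled points have an edgeR adjusted p under 0.05, bars are list medians, and genes without counts in a line are not drawn. The signature medians are 0.095 in SCC-15 and -0.18 in CAL-27.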

How the data were processed

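The authors deposited raw counts by gene symbol, not normalized, for 12 libraries (0 columns could not be mapped). The submitters' processing notes name the build hg38 and the tools featureCounts 2.0.1, STAR 2.7.7a and Trim Galore 0.6.6. The annotation, the strand setting and the treatment of multiply mapped reads were not given in the sources used here. Per the labels' protocols, libraries were poly(A)-selected, dUTP-stranded and paired-end. Symbols matched GENCODE 29 (GRCh38) in 58708 of 58735 lines, which gave positions and exon lengths.

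Genes were kept by edgeR's filterByExpr on the 4 groups. TMM scaling and edgeR 4.0.16 (R 4.3.3) fitted a robust quasi-likelihood model with 4 group means to 12 libraries (8 residual degrees of freedom). The contrasts were shTTK against shControl in each line, their interaction, and SCC-15 controls against CAL-27 controls. P-values were two-sided and adjusted by Benjamini-Hochberg over 16946 genes, with calls at an adjusted p under 0.05. The SE is the log2 fold change over the root of F. Levels are TMM-scaled CPM. Lists are described by counts and medians, without a set test.

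The members, gene lists and naming rule were chosen with earlier results of these data known. The rule took all 10 genes, up to 2 other genes per list, direction and line with the smallest adjusted p, and the nearest profiles. Alternatives were RLE factors, DESeq2 1.42.0, 2 other filters, each line alone, a replicate block, and fits without libraries. The steps were tested on simulated data.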

Additional observations from a re-analysis of the deposited data

Results flagged for a closer look

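For 9 of the 10 genes the knockdown change differed between the lines by the test of the difference itself. The log2 change in SCC-15 less that in CAL-27 was above 0 for NT5E (1.63), AXL (1.18), ANKRD1 (2.24), AMOTL2 (0.41), LATS2 (0.39) and TEAD1 (0.23). It was below 0 for CTGF (-0.39), AJUBA (-0.25) and YAP1 (-0.18). NT5E was called in both lines and in opposite directions, YAP1 was called lower in both, and the others were called in 1 line each. Of all tested genes, 25.4% had a called difference. TTK itself fell more in SCC-15 (difference -0.67), so cell line and depth of knockdown cannot be told apart in these differences.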

How the results depend on the processing

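Replicate numbers did not pair the libraries: the deviations of same-numbered libraries correlated by -0.040 to 0.017, and with the replicate block the calls of the 10 genes were as without it, except that CTGF in CAL-27 was called higher (0.096, edgeR adjusted p = 0.0260). The count of genes of the set called higher in CAL-27, 0, was 1 (CTGF) with every gene with a read (0.11), with genes at 1 CPM in 3 libraries (0.10), with CAL-27 alone and with the replicate block, and 0 to 1 without each library in turn. DESeq2 (0.096, adjusted p = 0.0834) and RLE factors did not call it. The count called lower in CAL-27, 7, was 6 to 7 without each library. The interaction was called below 0 for 2 genes, against 3, without the SCC-15 libraries numbered 1. The remaining counts for the set and over all genes moved by less than 1.5 times. AXL in SCC-15 changed sign without control library 3 (0.0035, adjusted p = 1), with values from -0.098 to 0.0035 over the fits without 1 library each, and was called in no setting there. The calls of YAP1 and of CYR61 for the interaction changed without the SCC-15 libraries numbered 1, as given above. The cause of these changes was not tested. Depth limits ANKRD1, with 2 to 34 counts per library.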
